A study of Arabidopsis thaliana with 4 samples.

Results

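The response of wild-type (WT) *Arabidopsis thaliana* roots to auxin was taken from the RNA-seq comparison WT-NAA VS WT-Mock, which holds 2 of the 4 libraries of the series. Its members were chosen by genotype and treatment alone: WT-Mock is the library of mock-treated Col-0 roots and WT-NAA that of Col-0 roots given naphthalene acetic acid (NAA), a synthetic auxin. All seedlings were 8 days old and grown on diluted Murashige and Skoog medium. By the study's methods, NAA was given at 10 μM for 4 hours. The sample labels give neither, and the headers of deposited tables not used here carry another number for NAA, so the files leave the dose unclear. The labels state growth in the dark, the methods a photoperiod. The other 2 libraries came from a T-DNA mutant of *ARF7*, treated likewise (*arf7*-Mock and *arf7*-NAA). Every condition has 1 library, so no replicate test exists. Intervals and P values below cover counting error only and compare libraries, not conditions, and in whole roots fewer cells of a type cannot be told apart from less RNA per cell.

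Auxin acts through a short pathway. It binds F-box receptors of the TIR1/AFB group, Aux/IAA repressors are then degraded, and auxin response factors (ARFs) such as ARF7 are freed to act on promoters that carry the core TGTC. Early targets known from seedlings include the *Aux/IAA*, *GH3* and *SAUR* families, and in roots the *LBD* genes of lateral root initiation, while cell wall enzymes and transporters act in the cells that overlie a new primordium.

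The libraries held between 7.03 M and 7.57 M unique reads (M, mega-reads), with 7.57 M for WT-Mock and 7.42 M for WT-NAA. In WT, 25736 transcript models of 22469 genes had reads, with a median of 71 reads over both libraries together. Root identity was checked by marker genes. *PYK10*, a root β-glucosidase, had 161015 reads in the mock library and 144675 after NAA, and *SHR*, a radial patterning gene, had 472 and 477. Other root markers were higher after NAA, such as *NRT1.1* (1435 and 2747), AT2G36100 (1380 and 2398) and *SCR* (824 and 990). *SMB*, at 0 and 1, and *APL*, at 6 and 5 in the model AT1G79430.2, were almost without reads. The 11 root models summed to 165515 and 151817 reads, mostly those of *PYK10*. Of the seed markers, only *SESA4* had reads, 1 in each. The shoot markers, 26 models for light-harvesting proteins and the small Rubisco subunit, summed to 1836 and 1335 reads in WT and to 491 and 1583 in the *arf7* libraries.

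A model was called when an exact two-sided binomial test on its reads, given the library totals, gave P under 0.0001 and the log2 ratio of reads per library total was at least 1 in size. In WT-NAA, 95 models (95 genes) were higher, which is 0.369% of the models tested, and 157 models (154 genes) were lower, or 0.610%. Falls therefore outnumbered rises, although their sizes were alike, with a median absolute log2 ratio of 1.33 in both directions. The models that fell had the higher median RPKM in WT-Mock, at 15.5 against 8.80, which choosing them by a fall from that library favours. The models that fell took 1.13% of the mock library and 0.476% of WT-NAA, whereas the models that rose went from 0.241% to 0.660%. A ratio of at least 4-fold was reached by 16 rises and 21 falls. Just inside the threshold lay *RALFL27* at a log2 ratio of 1.00 and *UGT76D1* at -1.001. Just outside lay *AGP22* at 0.997 and AT4G01870 at -0.997.

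How many calls hold depends on the spread between plants, which these libraries do not measure. When an edgeR exact test was given an assumed biological coefficient of variation of 0.2, 10 rises and 17 falls remained, and at 0.4 there were 0 rises and 2 falls, *CYP81F2* and *IGMT2*. For gene lists a second description was used, which covers counting error only, has no size threshold and does not measure that spread either. It counts members with at least 50 reads in both libraries together whose 95% interval of the log2 ratio lay wholly above or below 0. Over all 13913 such models, 13.1% were higher and 15.3% lower by that measure, and the median log2 ratio was -0.02. These shares grow with depth, from 7.35% higher and 8.94% lower at 50 reads to under 200 reads to 22.2% and 22.9% at 1000 reads or more.

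**Figure D1:**
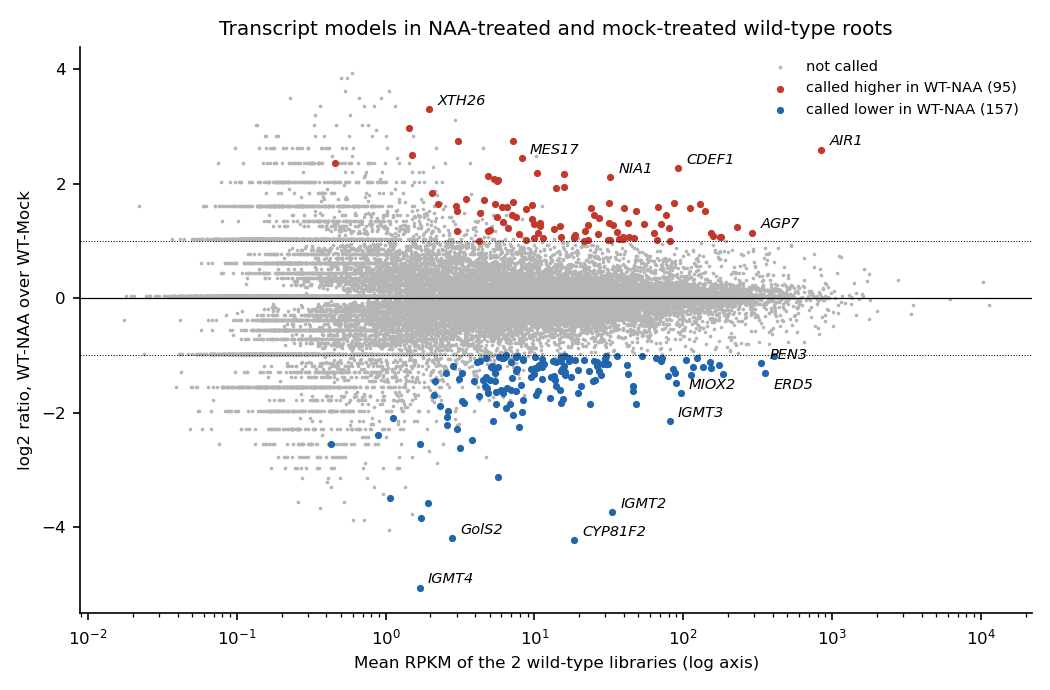
Each point is a transcript model, plotted by the mean RPKM of the 2 wild-type libraries (log axis) and by the log2 ratio of WT-NAA over WT-Mock. Red points are the 95 models called higher, blue points the 157 called lower, grey points were not called, and dotted lines mark log2 ratios of 1 and -1. *AIR1* stands alone among the abundant models that rose, and *CYP81F2* and *IGMT2* lie far below the other falls of like abundance.

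The promoters of a few members are printed here because the groups of rises and falls are compared below by what such windows hold. Each window is the 250 bases before the annotated gene start, read 5′ to 3′ on the gene's strand from TAIR10.1. For 4 genes that fell, the W-box core TTGAC is in capitals on either strand. It is the element that WRKY factors bind. *CYP81F2* is at chr5:23187590-23187839 (+ strand), *IGMT3* (AT1G21110) at chr1:7391554-7391803 (- strand), *IGMT2* (AT1G21120) at chr1:7396774-7397023 (- strand) and AT1G26420 at chr1:9143305-9143554 (- strand).
CYP81F2: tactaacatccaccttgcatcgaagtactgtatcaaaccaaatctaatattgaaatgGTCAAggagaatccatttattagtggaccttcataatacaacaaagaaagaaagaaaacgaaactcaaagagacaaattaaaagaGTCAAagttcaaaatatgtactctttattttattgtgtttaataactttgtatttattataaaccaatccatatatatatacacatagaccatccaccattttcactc
IGMT3: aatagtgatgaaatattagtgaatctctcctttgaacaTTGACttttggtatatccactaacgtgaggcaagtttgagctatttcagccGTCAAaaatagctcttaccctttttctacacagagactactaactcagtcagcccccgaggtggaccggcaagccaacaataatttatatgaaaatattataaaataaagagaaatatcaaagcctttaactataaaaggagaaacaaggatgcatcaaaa
IGMT2: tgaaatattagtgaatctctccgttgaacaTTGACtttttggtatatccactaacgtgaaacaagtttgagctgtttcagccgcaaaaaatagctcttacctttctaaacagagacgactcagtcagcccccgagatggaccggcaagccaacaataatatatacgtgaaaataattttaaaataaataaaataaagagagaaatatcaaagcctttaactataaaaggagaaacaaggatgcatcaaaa
AT1G26420: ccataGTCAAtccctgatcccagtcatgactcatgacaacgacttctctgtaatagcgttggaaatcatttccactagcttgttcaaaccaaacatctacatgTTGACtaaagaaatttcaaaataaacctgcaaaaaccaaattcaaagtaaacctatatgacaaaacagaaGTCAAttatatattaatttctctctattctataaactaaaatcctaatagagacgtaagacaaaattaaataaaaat

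For 3 genes that rose, the auxin response core TGTC is in capitals on either strand. *PRH1* (AT2G19990) is at chr2:8630689-8630938 (- strand), *MES17* at chr3:3402673-3402922 (- strand) and *LBD29* at chr3:21549559-21549808 (- strand).
PRH1: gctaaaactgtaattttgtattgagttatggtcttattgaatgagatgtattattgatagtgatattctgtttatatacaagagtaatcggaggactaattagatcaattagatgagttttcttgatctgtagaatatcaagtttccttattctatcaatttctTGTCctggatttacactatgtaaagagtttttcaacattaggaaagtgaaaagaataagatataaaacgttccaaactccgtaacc
MES17: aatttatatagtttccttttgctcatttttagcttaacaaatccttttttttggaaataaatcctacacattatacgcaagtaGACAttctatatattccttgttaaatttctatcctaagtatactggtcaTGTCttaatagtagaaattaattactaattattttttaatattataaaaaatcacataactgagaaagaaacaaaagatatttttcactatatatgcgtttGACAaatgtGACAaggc
LBD29: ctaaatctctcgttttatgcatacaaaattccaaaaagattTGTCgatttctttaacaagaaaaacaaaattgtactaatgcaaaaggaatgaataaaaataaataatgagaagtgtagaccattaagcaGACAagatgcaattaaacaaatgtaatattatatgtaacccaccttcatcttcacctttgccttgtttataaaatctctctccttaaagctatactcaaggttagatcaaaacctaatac

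In windows of this length, TTGAC stood in 106 of the 154 genes called lower (68.8%), in 51 of the 95 called higher (53.7%) and in 45.0% of the 22332 genes with reads. The core TGTC stood in 76.8% of the genes called higher, in 83.8% of those called lower and in 75.7% of all genes. Of the longer motifs, each of which was searched on both strands, TGTCTC (which contains TGTC) stood in 14.7% of the genes called higher, 14.9% of those called lower and 12.4% of all genes, and TGTCGG in 2.11%, 3.25% and 4.67%. In the same order, the ethylene response element GCCGCC stood in 1.05%, 6.49% and 2.37%, the G-box CACGTG in 6.32%, 7.14% and 8.33%, and ACGCGT in 6.32%, 4.55% and 2.22%. A match is only a run of letters in this window, and the differences between these shares were not tested.

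Among the rises, the most abundant was *AIR1* (AT4G12550, chr4:7439115-7439805), named for its induction by auxin in root cultures and coding for a small wall protein of the lipid-transfer type. Its reads numbered 1255 in the mock library and 7421 after NAA, or 239.9 and 1448 RPKM, a log2 ratio of 2.59 (95% interval 2.51 to 2.68). Its neighbour and relative AT4G12545 rose as well, from 577 to 1178 reads (log2 ratio 1.06). Of the 81 lipid-transfer and AIR1-like models with reads, 4 were called higher, among them *LTP5* (159 to 326 reads), and 1 lower, *LTP3* (55 to 15 reads).

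Several esterases and single genes of the cuticle, the waxy outer layer of the epidermis, rose. *CDEF1* (AT4G30140), a GDSL-type esterase that degrades cutin, had 334 and 1575 reads (31.7 and 153 RPKM, log2 ratio 2.27, interval 2.10 to 2.44). It was one of 5 GDSL lipases called higher out of 62, with 0 called lower, and by interval the family had 9 higher and 5 lower of 32. The others were AT5G55050 (177 to 548 reads), AT3G16370 (227 to 537), *ARAB-1* (94 to 220) and AT1G29660 (35 to 110). The median of the 32 members of this family with 50 reads or more was 0.15, against -0.02 over all models. *BDG1*, an enzyme of cuticle formation, went from 38 to 112 reads, *KCS16*, which elongates very long chain fatty acids, from 79 to 156, and the epidermal gene *PDF1* from 954 to 1992. In the list of suberin and cutin enzymes, 3 of 48 models were called higher and 0 lower, but by interval 10 were higher and 11 lower of 39, so the list was divided.

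**Figure D2:**
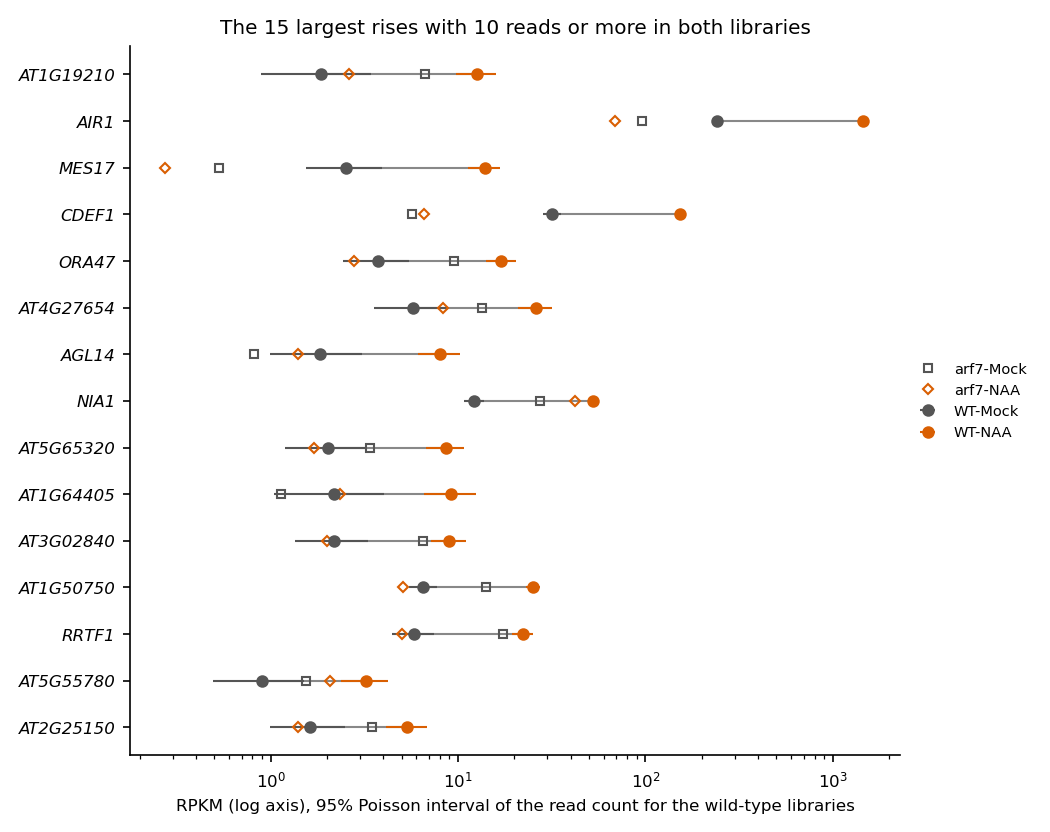
RPKM (log axis) in each library of the 15 models with the largest rises among those with 10 reads or more in both wild-type libraries. Filled circles are WT-Mock (grey) and WT-NAA (orange) with 95% Poisson intervals of their read counts, and open symbols are the *arf7* libraries. *AIR1* rose from 239.9 to 1448 RPKM, and the *arf7* values of *AIR1*, *MES17* and *CDEF1* lie below those of WT-Mock.

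Among all 61 gene lists, that of extensins and arabinogalactan proteins held the most called rises by number. By share it did not lead, since ethylene synthesis (2 of 12 models, 16.7%) and the CAP/PR-1 family (2 of 15, 13.3%) lay above it. Extensins and arabinogalactan proteins are hydroxyproline-rich proteins of the wall, and the former are abundant in root hairs. Of 108 models, 9 (8.33%) were called higher and 1 (0.926%) lower, against 0.369% and 0.610% of all models tested. By interval 50 of 78 were higher and 5 lower, with a median log2 ratio of 0.37. *AGP7* had 1034 and 2237 reads (log2 ratio 1.14, interval 1.04 to 1.25), *EXT13* 715 and 1539, *EXT12* 618 and 1216, and *PRP2* 29 and 76. The single member called lower, the extensin-like AT1G26250, had 926 and 253 reads (log2 ratio -1.84). The most abundant member, *EXT3*, a root extensin, had 117443 and 139903 reads and was not called (log2 ratio 0.28). Together the list took 263152 reads in the mock library and 331819 after NAA. Extensin genes are repetitive and alike, so their unique reads may be split among copies.

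Xyloglucan endotransglucosylase/hydrolases (XTHs) cut and rejoin the xyloglucan that tethers cellulose. By interval 13 of 21 were higher and 2 lower (median log2 ratio 0.45), while 1 of 30 models with reads was called. This was *XTH26*, with the largest ratio of the called rises, from 3 to 29 reads (log2 ratio 3.30, interval 1.61 to 5.66). *XTH15*, at 610 and 1058 reads, had a log2 ratio of 0.82, and *XTH20*, at 240 and 157, one of -0.58. Expansins, which loosen walls, were divided. *EXPA8* rose from 101 to 294 reads and *EXPB1* from 273 to 658, whereas *EXPB3* fell from 95 to 43.

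Of 153 models for pectin-modifying enzymes, 4 were called higher and 0 lower, and by interval 32 were higher and 6 lower of 85. The called members were the pectin methylesterases *PME2* (446 to 903 reads) and *PME44* (106 to 214) and the methylesterase inhibitor-like AT4G25250 (150 to 367) and AT1G62770 (268 to 646). Class III peroxidases, which cross-link or loosen the wall, had 3 rises and 1 fall among 63 models, and 21 higher and 9 lower of 49 by interval.

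Root hair genes were mostly higher by interval, with 1 call. Of 35 members with 50 reads or more, 24 were higher by interval and 3 lower, with a median log2 ratio of 0.46. *PRP1*, a proline-rich wall protein of root hairs, was the called member (127 to 301 reads, log2 ratio 1.27). *RHD6*, a bHLH factor that starts hair growth, had 118 and 210 reads (log2 ratio 0.86), *RSL4*, which sets hair length, 50 and 85 (0.80), and *EXPA7*, a hair expansin, 313 and 486 (0.66). The list shares 3 models with the extensin list, which is 6.98% of the root hair list and 2.78% of the extensin list. Aquaporins, the water channels of membranes, showed 13 higher and 2 lower of 23 by interval and no call. The abundant *TIP2* had 13782 and 18022 reads (log2 ratio 0.42).

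**Figure D3:**
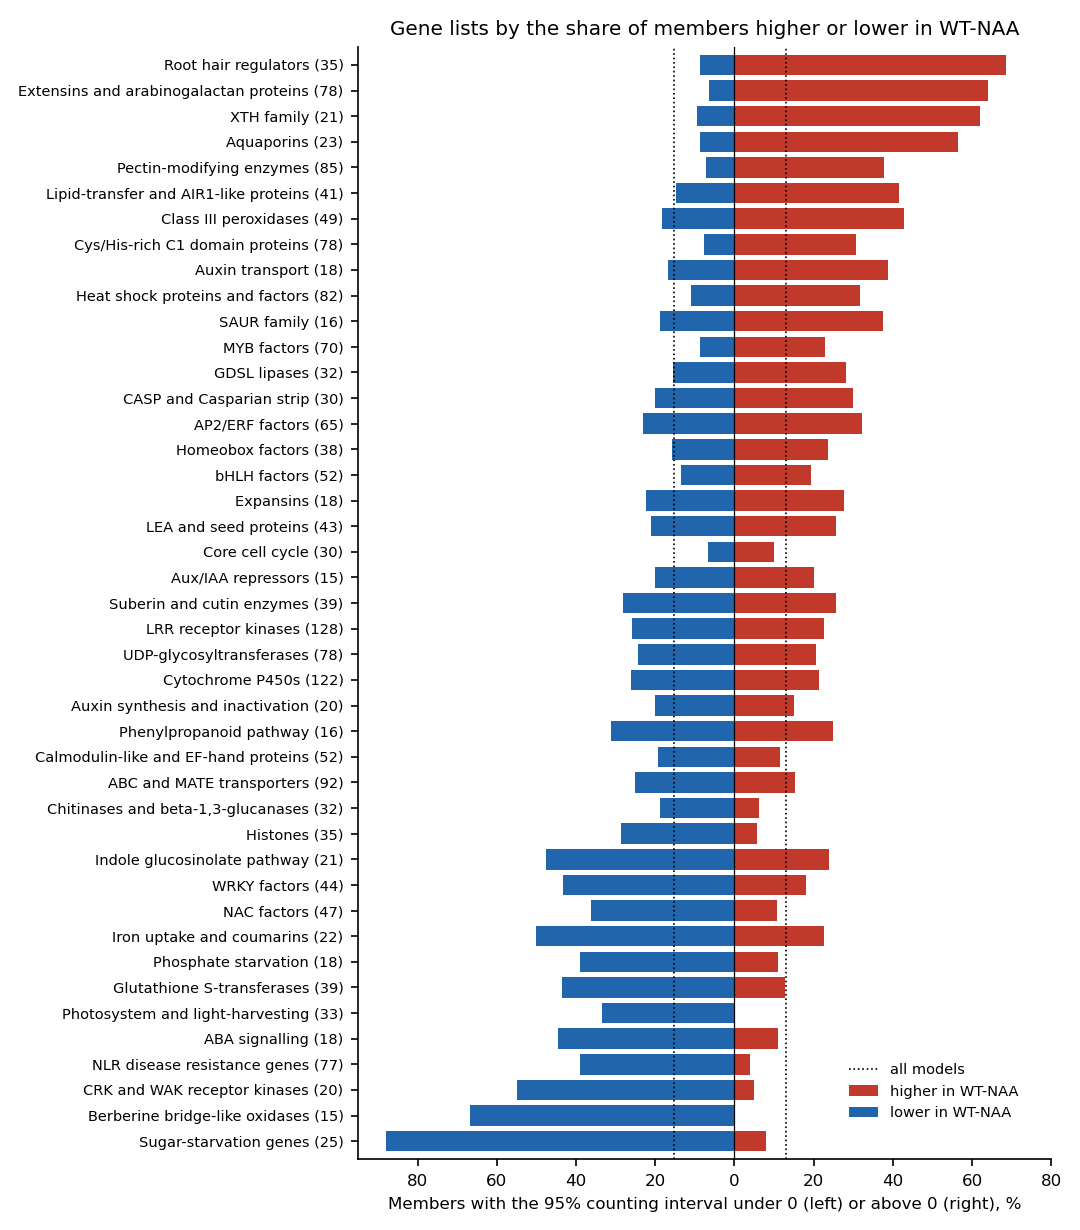
For each gene list with at least 15 members at 50 reads or more (number in brackets), the share of those members whose 95% counting interval lay above 0 (red, right) or under 0 (blue, left), in percent. Dotted lines are the shares over all such models, 13.1% and 15.3%. Root hair, extensin, XTH and aquaporin lists lie at the top, and the sugar-starvation list, with 22 of 25 members lower, at the bottom.

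Of the auxin-responsive and signalling families, *LBD* held a called member, *LBD29*, and the 5 counted next held none. Of 34 *Aux/IAA* models, 13 *GH3* models, 45 *SAUR* models, 17 *ARF* models and 7 *TIR1/AFB* models, 0 were called in either direction. By interval *SAUR* models had 6 higher and 3 lower of 16, *ARF* models 4 higher and 0 lower of 7 and *TIR1/AFB* models 2 higher and 0 lower of 5. *IAA14*, the repressor of lateral root initiation, had 77 and 143 reads (log2 ratio 0.92, interval 0.51 to 1.34), and *IAA17* (listed as *AXR3*) 590 and 844 (0.55). *IAA19* had 41 and 38 (-0.08, interval -0.76 to 0.59), and *IAA2* 930 and 802 (-0.18). The median over the 15 *Aux/IAA* models with 50 reads or more was -0.06, near that of all models.

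GH3 enzymes join auxin to amino acids and so inactivate it. Here 5 of 7 members with 50 reads or more were higher by interval and 0 lower, with a median log2 ratio of 0.48. *GH3.3* had 94 and 171 reads (0.89, interval 0.52 to 1.27), *GH3.5* 744 and 1165 (0.68), and *GH3.6* 504 and 726 (0.56). All 3 stayed under the threshold of the call. In the *arf7* libraries *GH3.3* stood much higher, at 697 and 1622 reads. The other 2 stood lower there than in WT, *GH3.5* at 214 and 214 reads and *GH3.6* at 271 and 238. *MES17*, an esterase able to release free auxin from its methyl ester, was the 1 call in the list of auxin synthesis and inactivation (29 models). It went from 20 to 107 reads, a log2 ratio of 2.45 (interval 1.75 to 3.22).

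LBD factors act below ARF7 in lateral root initiation, and *LBD29* was the only one called of 28 models. Its reads numbered 30 in the mock library and 78 after NAA (log2 ratio 1.41, interval 0.78 to 2.07), against 4 and 7 in the *arf7* libraries. *LBD18* had 23 and 42 reads (0.90) and *LBD16* 132 and 165 (0.35, interval 0.01 to 0.69). By interval 7 of 13 *LBD* models were higher and 0 lower. Of other genes of the lateral root primordium, not called, there were 44 and 28 reads for *PUCHI* and 2 and 6 for *GATA23*. Of the CAP/PR-1 family, secreted proteins named after a pathogenesis-related protein, 2 nearby genes of 15 models were called higher and 0 lower. These were *PRH1* (chr2:8629984-8630688), from 25 to 76 reads (log2 ratio 1.63, interval 0.97 to 2.35), and AT2G19970, from 84 to 217 (1.40). By interval 5 members were higher and 1 lower of 10, the latter being the abundant AT4G07820 (1100 and 581 reads, -0.89).

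Auxin carriers were divided. *ABCB14*, a transporter of the P-glycoprotein type, rose from 55 to 121 reads (log2 ratio 1.17), and *ABCB21*, an auxin transporter, fell from 634 to 303 (-1.04). The influx carrier *LAX3*, which acts in cells overlying a primordium, had 814 and 1096 reads (0.46, interval 0.33 to 0.59) and did not pass the threshold.

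Transcription factors were called in both directions. In the AP2/ERF family 5 models were called higher and 4 lower of 120, and by interval there were 21 higher and 15 lower of 65. MYB factors had 2 (1.49%) and 0 called of 134, and bHLH factors 2 (1.67%) and 1 (0.833%) of 120. Over all models tested, 0.369% were called higher and 0.610% lower. Of the AP2/ERF genes, AT1G19210 went from 10 to 66 reads, *ORA47*, an activator of jasmonate synthesis genes, from 26 to 116, and *RRTF1*, a redox-responsive factor, from 61 to 228. *ERF53*, by contrast, fell from 127 to 26 reads (log2 ratio -2.26). *AGL14*, a MADS factor of root development, rose from 14 to 60 reads (2.13). The ACC synthases *ACS5* (32 to 88) and *ACS6* (582 to 1152), which make the ethylene precursor, were both called.

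Of 86 calmodulin-like and EF-hand models, 2 (2.33%) were called higher and 1 (1.16%) lower. By interval there were 6 higher and 10 lower of 52. The genes described next share no list and were picked after their values were seen. AT4G27280, an EF-hand calcium-binding protein, rose from 689 to 1604 reads (1.25), the ERF factor AT5G51190 from 722 to 1489 (1.07) and AT2G30020, a phosphatase of type 2C, from 354 to 1051 (1.60). The ribonuclease H-like genes AT3G44260 (436 to 1277 reads) and AT5G22250 (199 to 396), the mitochondrial carrier *DIC2* (660 to 1847) and the nudix hydrolases *NUDT21* (299 to 930) and *NUDT4* (388 to 893) rose too. For all 8 of these genes *arf7*-Mock held more reads than WT-Mock, for example 1073 for *DIC2*, which choosing genes that rose from WT-Mock favours. For all 8, *arf7*-NAA held fewer reads than *arf7*-Mock, 539 for *DIC2*, and 4 of them were called lower in *arf7*.

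Proteins with the cysteine- and histidine-rich C1 domain, a zinc-binding fold, had 5 of 137 models called higher and 1 lower. This list was added after the counts were seen. By interval 24 were higher and 6 lower of 78 (median log2 ratio 0.33). AT3G46800 rose from 7 to 39 reads (interval 1.33 to 3.91), AT5G55780 from 14 to 49 and AT3G26550 from 50 to 112, while AT5G43520 fell from 688 to 284 (-1.25). The family is large and alike in sequence, so unique reads may be split among copies.

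Among rises outside these groups, the chitinase gene AT2G43590 went from 508 to 1561 reads (1.65), and it was the 1 call of 48 chitinase and glucanase models. *ALMT1*, which releases malate from roots, rose from 53 to 152 (1.55) and *MYB61*, a factor of wall and mucilage formation, from 71 to 173 (1.31). The bHLH gene AT5G65320 rose from 18 to 75, the bHLH gene AT2G22760 from 3 to 23 (interval 1.24 to 5.35) and the protein kinase gene AT4G13190 from 7 to 46 (interval 1.59 to 4.14). All 3 started from fewer than 20 reads, so the size of their rise is loosely set.

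Of 16 models for nitrate uptake and reduction, 1 was called higher and 1 lower. *NIA1*, a nitrate reductase, rose from 280 to 1184 reads (log2 ratio 2.11, interval 1.92 to 2.30). *NIA2*, the other nitrate reductase, had 3463 and 5927 (0.81), and the nitrate transporter and sensor *NRT1.1* 1435 and 2747 (0.97), both under the threshold. *NRT1.8*, which takes nitrate back from the xylem, fell from 73 to 27 (-1.41).

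The largest falls among models with 10 reads or more in both libraries, *CYP81F2* and *IGMT2*, belong to the indole glucosinolate pathway. Indole glucosinolates are tryptophan-derived defence compounds. CYP81F2 hydroxylates the indole ring, the methyltransferases IGMT1 to IGMT4 methylate the product, the myrosinase PEN2 cleaves it and the transporter PEN3 exports products. Of 25 models, 6 were called lower and 0 higher. *CYP81F2* fell from 459 to 24 reads (35.2 to 1.88 RPKM), a log2 ratio of -4.23 (interval -4.88 to -3.64). *PEN3*, among the most abundant falls of all, went from 16557 to 7379 reads (-1.14).

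*IGMT1* to *IGMT4* stand next to each other on chromosome 1. *IGMT1* (AT1G21100) fell from 5728 to 2776 reads (-1.02), *IGMT3* from 1388 to 307 (-2.15) and *IGMT2* from 639 to 47 (-3.74, interval -4.19 to -3.31). *IGMT4* (AT1G21130) had 34 reads and then 1 in the model AT1G21130.1, a log2 ratio of -5.06 with a counting interval of -10.40 to -2.48. Those reads covered only 5.13% and 3.59% of the model. Its other model, AT1G21130.2, had 7 and 3 reads and was not called. These 4 genes are near copies of each other, so the split of unique reads among them is uncertain, although each had a model called lower. The further copy *IGMT5* (AT1G76790, chr1:28822186-28823673), elsewhere on that chromosome, had 1256 and 1148 reads (-0.10) and was not called. *IGMT1* to *IGMT4* and the vacuolar iron transporter-like AT1G21140 (104 to 49 reads) made a run of 5 genes called lower at chr1:7386839-7405281. A run joins called genes at most 3 steps apart along the gene order, so other genes may lie between its members. This run was the longest of 9 among the falls. The rises had 4 runs, each a pair.

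Of the 21 pathway models with 50 reads or more, 10 were lower by interval and 5 higher, and the members upstream of CYP81F2 were not called. *CYP83B1*, an early step, had 3850 and 2952 reads (-0.35) and *CYP79B2*, which starts it from tryptophan, 1681 and 1573 (-0.07). *MYB51*, a regulator, had 818 and 606 (-0.40), and its relative *MYB34* 476 and 636 (0.45). The related hydroxylase *CYP81F3* stood at 375 and 536 reads (0.55), in the direction opposite to *CYP81F2*.

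**Figure D4:**
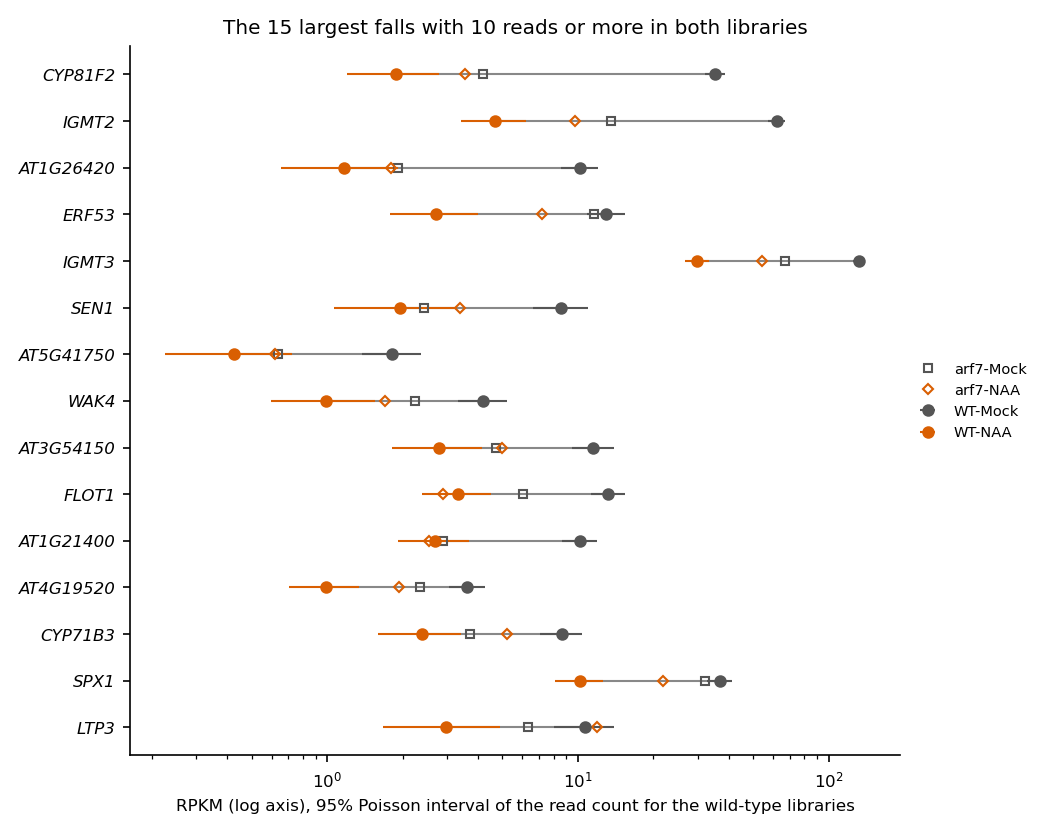
RPKM (log axis) in each library of the 15 models with the largest falls among those with 10 reads or more in both wild-type libraries. Filled circles are WT-Mock (grey) and WT-NAA (orange) with 95% Poisson intervals of their read counts, and open symbols are the *arf7* libraries. *CYP81F2* fell from 35.2 to 1.88 RPKM, and for *CYP81F2* and *IGMT2* both *arf7* libraries lie nearer to WT-NAA than to WT-Mock.

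Further falls lay in families linked to defence. The berberine bridge enzyme-like oxidases, a family with members that oxidise defence compounds and oligosaccharides, had 4 of 23 models called lower and 0 higher. This list and those of NLR genes and LRR receptor kinases below were added after the counts were seen. By interval 10 of 15 were lower and 0 higher (median log2 ratio -0.53). Here AT1G26420 fell from 134 to 15 reads (-3.13), the nearby AT1G26380 from 44 to 3, and AT1G30700 from 2179 to 930 (-1.20). Glutathione S-transferases, which detoxify by joining glutathione, had 5 falls and 0 rises of 57, the most abundant being *GSTF7* (1513 to 638 reads). Its neighbour *GSTF6* (51 to 9) is a near copy, so their reads may be confused.

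Among WRKY factors, regulators of defence, 3 of 79 models were called lower and 0 higher. *WRKY70* fell from 340 to 160 reads, *WRKY54* from 73 to 24 and *WRKY51* from 56 to 18. By interval 19 were lower and 8 higher of 44. NLR disease resistance genes, which code for intracellular immune receptors, had 3 falls and 0 rises of 133 models, and by interval 30 lower and 3 higher of 77. Cell surface kinases of the CRK and WAK groups had 3 falls of 34 models (8.82%), among them *WAK4* (82 to 19 reads). By interval 11 of these kinases were lower and 1 higher of 20. LRR receptor kinases were mixed, with 29 higher and 33 lower of 128 by interval. Of their 181 models, 1 (0.552%) was called higher and 8 (4.42%) lower. *RBOHD*, the NADPH oxidase of the immune oxidative burst, fell from 978 to 457 reads (-1.07).

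Among detoxifying and specialised enzymes, calls were mostly falls while the families as a whole were near even. By interval cytochrome P450s had 26 higher and 32 lower of 122 and UDP-glycosyltransferases 16 higher and 19 lower of 78. Of 204 cytochrome P450 models, 7 were called lower and 1 higher, the sterol desaturase *CYP710A2* (131 to 270 reads). Besides *CYP81F2*, *CYP71B3* fell from 107 to 29 (-1.85), *CYP706A1* from 140 to 50 and *CYP706A2* from 186 to 70. Of 134 UDP-glycosyltransferase models, 4 were called lower and 0 higher. AT2G22590 went from 23 to 2 reads (counting interval -6.62 to -1.48), and it held 129 and 77 in the *arf7* libraries. The squalene monooxygenases, enzymes of sterol and triterpene synthesis, were divided, since *SQE6* fell from 49 to 4 (interval -5.52 to -2.14) and its relative AT5G24140 rose from 66 to 141 (1.12). The terpene synthase *TPS13* fell from 64 to 18 reads (-1.80).

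Other abundant falls had no list in common. The CTP synthase gene AT1G30820 fell from 3909 to 1759 reads (-1.12), the lectin gene AT1G78830 from 2913 to 1276 (-1.16), and the ERF factor AT5G61590 from 1771 to 691 (-1.33). The osmotin gene *OSM34*, a defence protein of the thaumatin type, fell from 1498 to 640 (-1.20), and the calcium ATPase-like AT3G63380 from 606 to 245 (-1.28). *FLOT1*, a flotillin of membrane microdomains, fell from 167 to 41 (-2.00), and the methyltransferase-like AT3G54150 from 105 to 25 (-2.04). For 6 of these 7 genes, WT-Mock held over 1.5 times the reads of *arf7*-Mock, AT1G30820 being the exception. Choosing genes that fell from WT-Mock favours such a difference, which was not tested.

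Genes known to be induced by darkness or lack of sugar formed the list with the largest share of falls of all 61. Of 39 models of 28 genes, 13 were called lower (33.3%) and 0 higher. Models of 1 gene were counted separately, and AT3G15450.1 and AT3G15450.2 were both among the falls. By interval 22 of 25 were lower and 2 higher, and the median log2 ratio was -1.05. *ERD5*, a proline dehydrogenase, fell from 7113 to 2829 reads (log2 ratio -1.30, interval -1.36 to -1.24). *MIOX2*, which opens the inositol ring, fell from 1454 to 449 (-1.67), AT5G22920, a RING zinc finger protein, from 1549 to 599 (-1.34), and *SWEET2*, a vacuolar sugar transporter of roots, from 284 to 91 (-1.61).

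Of the 39 models, 26 were not called, among them 2 of the dark-inducible *ASN1* with at most 2 reads in either library. Among those called, *SEN1* had 63 and 14 reads in the model AT4G35770.2 (-2.14), the β-glucosidase *DIN2* 107 and 39 (-1.43), and the raffinose synthase-like *DIN10* 133 and 63 in the model AT5G20250.4 (-1.05). AT1G21400, a subunit of the branched-chain keto acid dehydrogenase, had 151 and 39 (-1.92). The members in the other direction were *GDH1*, a glutamate dehydrogenase (1173 and 1318 reads, 0.20), and *EXL4* (849 and 1225, 0.56), neither of them called. Outside the list, the sucrose carrier *SUC1* fell from 1922 to 671 reads (-1.49), *PCK2*, a gluconeogenic enzyme, from 599 to 259 (-1.18), and *GolS2*, which makes galactinol, from 56 to 3 (-4.19, interval -6.51 to -2.57). Photosystem and light-harvesting genes were also lower, with 11 lower and 0 higher of 33 by interval and 4591 reads in the mock library against 3644 after NAA. This list, added after the counts were seen, takes in the shoot markers given above, whose sum was also lower. The part of these markers in the falls of other genes was not tested.

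**Figure D5:**
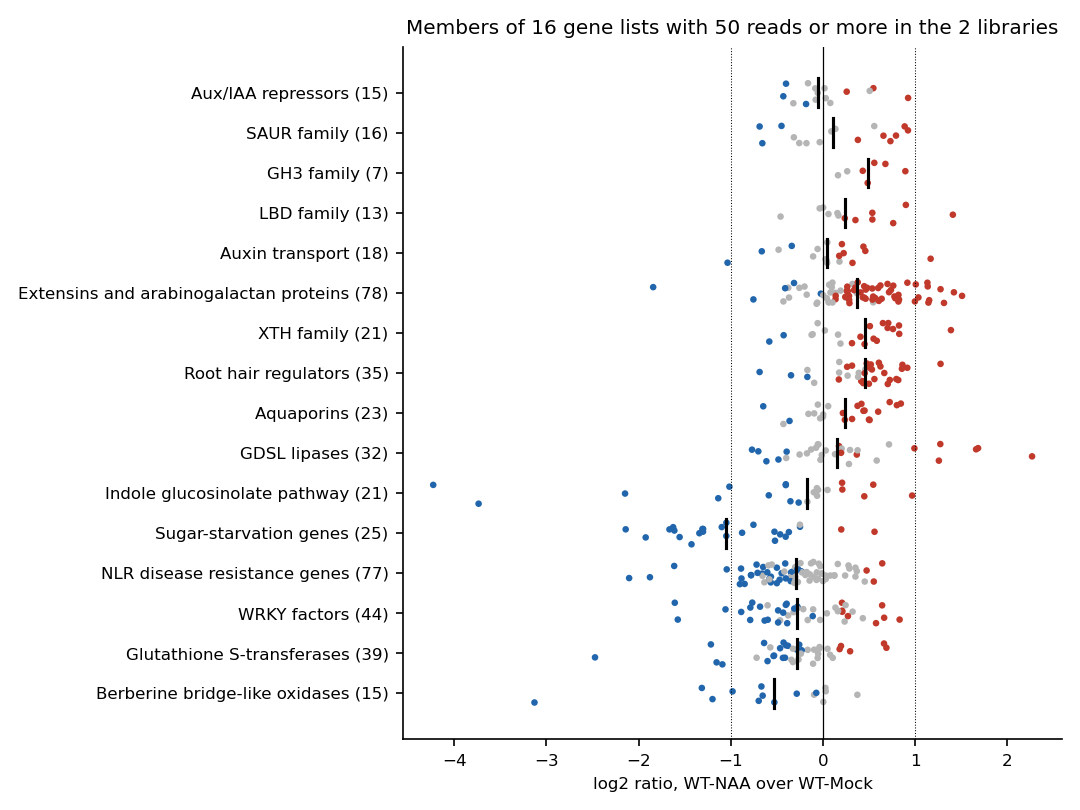
Log2 ratio of WT-NAA over WT-Mock for each member with 50 reads or more of 16 gene lists (number in brackets), with points spread vertically for legibility. Red and blue points have a 95% counting interval above or under 0, grey points do not, black bars are medians and dotted lines mark 1 and -1. The sugar-starvation median is -1.05, the XTH median 0.45 and the *Aux/IAA* median -0.06.

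Hormone, nutrient and flavonoid lists held further falls. In abscisic acid signalling, a list added after the counts were seen, 3 of 44 models were called lower and 0 higher. These were the phosphatase *HAI1* (121 to 40 reads), the receptor *PYL6* (266 to 108) and the F-box gene *EDL3* (38 to 8). Of 99 NAC models 3 (3.03%) fell and 1 (1.01%) rose, and by interval 17 were lower and 5 higher of 47. *ARR7*, a negative regulator of cytokinin signalling, fell from 168 to 69 reads. Its relatives *ARR3*, with 58 and 104 reads, and *ARR4*, with 646 and 818, were not called, and by interval the list of cytokinin response and oxidation had 6 higher and 2 lower of 8 (median 0.39). The phosphate sensor *SPX1* fell from 302 to 82 reads (-1.85) and *NPC4*, a phospholipase of phosphate starvation, from 111 to 53 (-1.04). *TT5*, the chalcone isomerase, fell from 284 to 110 reads and *FLS1*, the flavonol synthase, from 69 to 26. The chalcone synthase *TT4* had 9218 and 5307 (-0.77) and was not called.

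Cell division genes held 1 call. Of 55 core cell cycle models 1 was called, the P-type cyclin *CYCP3;1* (14 to 43 reads), and the median of 30 members was -0.03. Histones had 10 members lower and 2 higher of 35 by interval, with a median of -0.08 and 0 called. Cytochrome P450s, UDP-glycosyltransferases and LRR receptor kinases had medians between -0.01 and 0.01.

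The wild-type response was set beside that of *arf7*, whose libraries it does not share. *ARF7* itself could not check the mutant label, since its 2 listed models had only 6 and 12 reads in the WT libraries and 8 and 3 in the mutant ones. Of the 95 models that rose in WT, 3 (3.16%) were called higher in *arf7*-NAA VS *arf7*-Mock and 12 (12.6%) were called lower, where 0.341% and 0.356% of all models were. Of the 157 that fell in WT, 10 (6.37%) were called lower in *arf7* and 1 (0.637%) higher. The median *arf7* log2 ratio was 0.10 for the WT rises and -0.40 for the WT falls. In reads per library total, WT-NAA was the highest of the 4 libraries for 89 of the 95 rises, and WT-Mock the highest for 125 of the 157 falls, which the choice of members by these libraries favours.

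Several of the genes that rose in WT lay low in both *arf7* libraries, which does not mean that none of them rose there. *AIR1* had 480 reads in the mutant after mock and 334 after NAA, *CDEF1* 57 and 64, *MES17* 4 and 2, *PRH1* 4 and 11, and *PDF1* 221 and 375. The 3 models called higher in both genotypes were extensins, AT5G49080, listed as a transposable element gene in the files and as *EXT11* by RefSeq (254 and 617 reads in *arf7*), *EXT6* (496 and 1126) and AT5G06630 (329 and 647). Among the falls, *MIOX2* had 1033 and 459 in *arf7* and *ERD5* 6234 and 3330, whereas *CYP81F2* was already low in *arf7*-Mock at 52 reads and 43 in *arf7*-NAA. At the level of single genes no difference between the genotypes was tested.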

How the data were processed

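Root RNA of seedlings aged 8 days gave 4 sequencing libraries, 1 per condition. The authors deposited, per library and transcript model, unique read counts, RPKM (reads scaled by model length and library total) and the percent of the model covered; the aligner and annotation are not given in the sources used here. The deposited RPKM equalled values recomputed from the counts to within 4.00e-11. 4 deposited tables of the authors' own comparisons hold fold changes and P values beside 16 per-sample columns, and were not used.

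Ratios were computed from counts per library total with Python 3.11.15, NumPy 2.4.6, pandas 2.3.3 and SciPy 1.17.1, and alternatives in R 4.3.3 with edgeR 4.0.16 and DESeq2 1.42.0. A count of 0 was set to 3 reads, a floor per library, and no ratio was taken where both libraries were at or under it. P is an exact binomial P, intervals are 95% Clopper-Pearson intervals, and counts are of PCR-amplified reads, so both cover counting error only. Named models are the 15 largest rises and falls with at least 10 reads in both libraries, the 5 called models with the highest RPKM each way, the 3 with most reads among those with 0 to 3 reads in 1 library, and from each list up to 6 called and 2 uncalled members, of which the text gives a part. Further list members, the marker genes and the models called in opposite directions in the genotypes are named beyond that rule and were chosen after their values were seen. Of 61 lists, 6 were added after the counts were seen (NLR, LRR kinase, berberine bridge-like, abscisic acid, C1-domain and photosystem genes), and members and lists were chosen with earlier results of these data known. Coordinates are those of the files, and 99.96% of the models on chromosomes 1 to 5 with a gene in the TAIR10.1 annotation overlapped it. The calling procedure was tested on simulated Poisson counts without spread between plants. That test covers counting error only and cannot show how many calls would hold in other plants.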

Additional observations from a re-analysis of the deposited data

Results flagged for a closer look

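The 2 genotypes gave opposite calls for 13 models, and these differences were not tested. The values are log2 ratios of WT-NAA over WT-Mock, with the reads of the *arf7*-Mock and *arf7*-NAA libraries after them. Of the 12 models that rose in WT and fell in *arf7*, *ORA47* had a ratio of 2.19 (63 and 18 reads in *arf7*), AT3G02840 2.05 (60 and 18), AT1G50750 1.95 (273 and 96) and *RRTF1* 1.93 (175 and 49). *NUDT21* had 1.67 (589 and 258), *DVL10* 1.58 (131 and 38), AT4G29780 1.45 (952 and 456) and *SR45a* 1.33 (86 and 40). The EF-hand gene AT4G27280 had 1.25 (971 and 399), *NUDT4* 1.23 (626 and 272), the ERF gene AT5G51190 1.07 (867 and 403) and *ACS6* 1.01 (929 and 439). In the other direction, the phospholipase gene *PLP2* had -1.83 in WT (58 and 16 reads) and 13 and 46 reads in *arf7*. For all 12 models that rose, the *arf7*-Mock library held more reads than WT-Mock, which the choice of models called in opposite directions favours.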

How the results depend on the processing

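No paired analysis was possible because each condition has 1 library. Against 95 rises and 157 falls, the edgeR exact test gave 10 and 17 when the spread between plants was set to a coefficient of variation of 0.2, and 0 and 2 at 0.4, since a wider spread is assumed. The other settings stayed within 1.5 times of both counts: 68 and 115 at a coefficient of 0.1, 79 and 125 with a pseudocount of 1 RPKM, 99 and 147 with edgeR TMM factors, 94 and 157 with DESeq2 size factors, 87 and 151 with an adjusted P under 0.001, and 94 and 150 with reads summed per gene. A minimum of 1 RPKM or of 20 reads left 94 and 156 in each case. TMM factors moved the median ratio by 0.02 on the log2 scale and turned the sign of 5 uncalled models near 0: *POM1* to 0.0025, AT1G25550 to 0.014, AT1G54410 to 0.0026, *JAZ2* to 0.0094 and *ACS12* to 0.017.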
